A study of Mus musculus with 4 samples.

Results

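Broad open regions were the stretches of open chromatin in newborn mouse heart that spanned 1000 bp or more and were seen in every heart examined. Joining all overlapping peaks (1 bp or more) of 4 ATAC-seq libraries gave 53140 merged regions on the autosomes and X, and 16568 of these (31.2%) held a peak in all 4 libraries. Of the 16568, 1813 (10.9%; 3.41% of all merged regions) had a merged width of 1000 bp or more. The calls and the merged width chose these 1813 broad regions, so their number, width and coverage are given as a description. The remaining 14755 regions called in all 4 libraries are termed shorter regions and serve as the comparison.

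ATAC-seq inserts sequencing adapters into open DNA with the transposase Tn5, and each library came from the nuclei of 1 whole heart of a C57BL/6 mouse at postnatal day 0. Libraries WT 1 and WT 2 came from wild-type hearts. Libraries edKO 1 and edKO 2 came from hearts that lacked RXRα and RXRβ in cardiomyocytes only, so the other cells of these hearts kept both receptors. RXRα and RXRβ are retinoid X receptors, nuclear receptors that bind DNA as partners of the PPAR, retinoic acid, thyroid hormone and liver X receptors. The sources used here name neither the Cre driver nor the sex of the hearts. In whole tissue, fewer cells of a type and less open chromatin per cell cannot be told apart.

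A typical peak at a mammalian promoter marks a gap of a few nucleosomes at the transcription start. Wider gaps are known from CpG islands, stretches rich in unmethylated CpG dinucleotides that cover the starts of most housekeeping and many regulatory genes, where transcription often begins at many positions and in both directions. Broad open stretches are also found where enhancers lie close together.

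Widths thinned out smoothly on both sides of 1000 bp, with no gap that would set broad regions apart as a separate class. Among the members the median width was 1140 bp (quartiles 1061 and 1270 bp), 134 (7.39%) reached 1500 bp and 10 reached 2000 bp. The members just inside the threshold, all 1000 bp wide, lay at Arpc2, an actin-nucleating subunit, Rc3h1, an RNA-binding protein, and Flvcr1, a haem and choline transporter. Just outside it, at 999 bp, were regions at Bivm, Cry1, a repressor of the circadian clock, and Lgalsl. Merging joins the outer edges of all 4 libraries, and 317 members (17.5%) had 1000 bases covered in each library singly, 1407 (77.6%) in at least 1 library and 406 (22.4%) in none. A median of 730 bases per member, 62.7% of the width, was called in all 4 libraries at once, and 13 members held no base called in all 4.

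Promoters show the sequence that such regions cover. Printed are those of the 3 widest members, and of the 2 widest at cardiac transcription factor genes, among members that hold a whole promoter window of a protein-coding gene, with 1 chromosome not used here. Several wider members hold no such window and are described without sequence. Each window runs from 250 bases before to 50 bases after an annotated start, is taken from RefSeq for GRCm38.p6, reads 5′ to 3′ along the gene and has every CpG dinucleotide in capitals. Arid1b encodes a DNA-binding subunit of the SWI/SNF chromatin remodeller (member of 2583 bp, promoter at chr17:4994824-4995123, plus strand, 42 CpG). Sp3 encodes a zinc-finger factor that binds GC boxes (2221 bp, chr2:72979232-72979531, minus strand, 42 CpG). Wdr26 encodes a subunit of a ubiquitin ligase (2099 bp, chr1:181211929-181212228, minus strand, 30 CpG). Mef2a encodes a MADS-box factor of muscle genes (1363 bp, chr7:67372809-67373108, minus strand, 27 CpG), and Zfpm1 the GATA cofactor FOG-1 (1051 bp, chr8:122281891-122282190, plus strand, 37 CpG).
Arid1b: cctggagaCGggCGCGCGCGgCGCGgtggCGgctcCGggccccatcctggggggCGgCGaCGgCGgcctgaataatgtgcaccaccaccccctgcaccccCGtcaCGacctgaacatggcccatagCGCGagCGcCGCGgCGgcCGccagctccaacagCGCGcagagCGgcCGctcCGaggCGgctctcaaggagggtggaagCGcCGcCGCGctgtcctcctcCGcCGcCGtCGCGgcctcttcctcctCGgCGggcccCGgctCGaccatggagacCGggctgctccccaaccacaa
Sp3: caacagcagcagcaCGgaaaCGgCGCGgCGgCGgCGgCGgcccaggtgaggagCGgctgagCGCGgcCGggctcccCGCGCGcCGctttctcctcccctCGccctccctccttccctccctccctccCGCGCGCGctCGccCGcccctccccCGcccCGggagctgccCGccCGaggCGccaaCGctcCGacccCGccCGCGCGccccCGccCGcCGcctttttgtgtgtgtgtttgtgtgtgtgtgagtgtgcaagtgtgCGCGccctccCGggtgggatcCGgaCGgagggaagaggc
Wdr26: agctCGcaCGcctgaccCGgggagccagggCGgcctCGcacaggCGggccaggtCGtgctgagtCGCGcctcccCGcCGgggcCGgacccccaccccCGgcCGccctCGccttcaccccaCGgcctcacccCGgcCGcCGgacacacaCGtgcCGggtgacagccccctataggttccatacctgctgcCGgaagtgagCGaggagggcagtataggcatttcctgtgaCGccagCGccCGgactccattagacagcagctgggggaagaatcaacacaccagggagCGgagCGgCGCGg
Mef2a: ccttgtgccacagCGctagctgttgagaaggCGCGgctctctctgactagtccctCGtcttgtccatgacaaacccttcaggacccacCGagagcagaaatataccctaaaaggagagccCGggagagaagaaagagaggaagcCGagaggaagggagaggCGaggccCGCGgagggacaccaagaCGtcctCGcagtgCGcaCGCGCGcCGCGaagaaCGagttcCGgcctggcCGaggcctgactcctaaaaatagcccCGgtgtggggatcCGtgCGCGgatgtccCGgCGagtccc
Zfpm1: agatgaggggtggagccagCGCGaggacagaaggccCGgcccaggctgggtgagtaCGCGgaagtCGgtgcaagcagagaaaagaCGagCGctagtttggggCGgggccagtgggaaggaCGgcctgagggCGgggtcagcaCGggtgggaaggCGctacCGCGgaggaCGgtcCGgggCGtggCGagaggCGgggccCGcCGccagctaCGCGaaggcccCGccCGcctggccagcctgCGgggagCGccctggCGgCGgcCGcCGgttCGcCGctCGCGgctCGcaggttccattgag

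For comparison, 2 promoters lying wholly inside shorter regions are those of Meis1, a homeobox factor of heart and blood development (region of 477 bp, promoter at chr11:19018920-19019219, minus strand, 15 CpG), and Tnni1, the slow skeletal troponin I used by the fetal heart (365 bp, chr1:135799261-135799560, plus strand, 6 CpG).
Meis1: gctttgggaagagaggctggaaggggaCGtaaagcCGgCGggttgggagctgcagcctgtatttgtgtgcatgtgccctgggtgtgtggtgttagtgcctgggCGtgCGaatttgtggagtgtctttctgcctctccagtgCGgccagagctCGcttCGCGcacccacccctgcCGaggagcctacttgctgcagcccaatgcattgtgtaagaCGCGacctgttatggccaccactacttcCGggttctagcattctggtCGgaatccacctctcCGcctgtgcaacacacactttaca
Tnni1: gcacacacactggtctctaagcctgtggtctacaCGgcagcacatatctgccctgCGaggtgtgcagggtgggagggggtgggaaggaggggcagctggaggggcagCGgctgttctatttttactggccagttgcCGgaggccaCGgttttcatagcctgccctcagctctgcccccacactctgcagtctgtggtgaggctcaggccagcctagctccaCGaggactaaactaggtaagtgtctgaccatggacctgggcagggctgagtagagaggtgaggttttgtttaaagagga

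CpG dinucleotides are dense over most of the member promoters of Arid1b and Sp3, with some stretches that hold none, and few in that of Tnni1. The G+C content was 75.3% at Arid1b, 76.3% at Sp3, 71.3% at Wdr26, 62.3% at Mef2a and 73.7% at Zfpm1, against 58.3% at Meis1 and 58.7% at Tnni1. These windows illustrate the 2 kinds of region and were picked by width and gene list, not as an average.

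**Figure D1:**
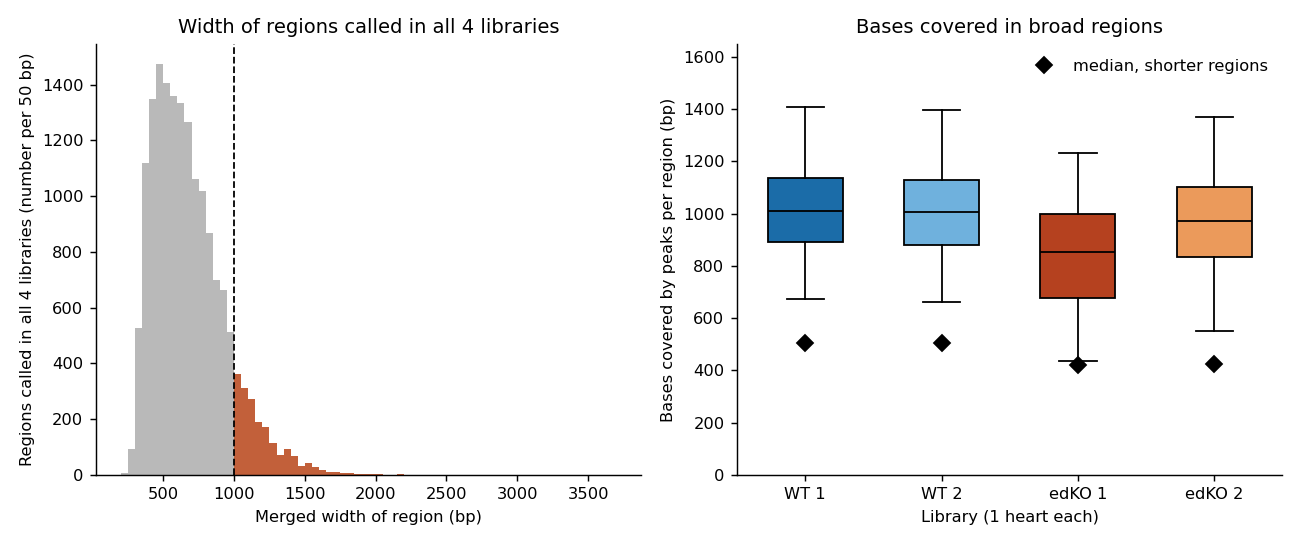
Left, number of regions called in all 4 libraries per 50 bp of merged width (x axis, bp), with broad regions in orange to the right of the dashed line at 1000 bp. Right, bases covered by peaks in each of the 1813 broad regions, by library (box, quartiles and median; whiskers, 5th and 95th percentiles), with the median of shorter regions as a diamond. Widths decline without a break at 1000 bp, and the box of edKO 1 is the lowest of the 4, with a median of 854 bp.

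Broad regions lay mostly at the starts of protein-coding genes. Within 1 kb of an end of a protein-coding gene were 1480 of 1813 members (81.6%, Wilson 95% interval 79.8 to 83.3%, counting error only), against 52.5% of shorter regions (51.7 to 53.3%). A further 253 members (14.0%) lay elsewhere in gene bodies and 80 (4.41%) between genes, against 28.3% and 19.2% of shorter regions. A wide region meets a 1 kb window more easily by construction. Judged by the strongest summit alone the gene-end share was 76.6% against 50.8%, and with any base within 100 bp it was 73.0% against 45%. Strength, taken as the mean percentile of −log10 p within each list, ran alongside. At or above the median strength of members, the 87.0th percentile, 88.4% of 907 members and 81.5% of 3000 shorter regions lay at gene ends. Where the promoter table gives the strand, 1227 of the gene ends inside members were starts (98.1%) and 24 were far ends. In shorter regions the share of starts was nearly the same, at 98.3%. A further 283 gene ends inside members had no strand.

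An annotated start of a protein-coding or long noncoding gene lay inside 1320 members (72.8%), against 45.1% of shorter regions. Many members classed as gene body lay over an annotated start, in some cases that of a long noncoding RNA such as 9330151L19Rik. Whether these starts are alternative promoters of the surrounding gene was not tested. Of the 253, 144 (56.9%) held an annotated start, against 19.3% of shorter gene-body regions, and these included the printed start of Mef2a and starts of N4bp2, Hnrnph1, Elf2 and Klf15. Of the 80 members between genes, 16 (20%) held a start, against 7.13% of shorter ones. The widest of the 16 was a region of 2171 bp, 6404 bp from Spen, over the start of the long noncoding RNA B330016D10Rik, and another of 1113 bp lay over Chaserr, the noncoding RNA that restrains its neighbour Chd2. Genes with a member at an end were longer, with a median length of 31930 bp, than genes with shorter regions at their ends (21930 bp) or all protein-coding genes (17330 bp). Of genes with a member and a promoter entry, 24.6% had 2 or more annotated starts, against 17.5% at shorter regions and 16.0% of all.

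Around a single start, broad regions reached further into the gene than ahead of it. In the 856 members with exactly 1 annotated start, a median of 499.5 bp lay upstream and 647 bp downstream, and 63.2% had more bases downstream. Shorter regions with 1 start (n = 5158) were closer to even, with 303 bp upstream, 340 bp downstream and 55.1% with more downstream. The strongest summit nevertheless lay upstream of the start, at a median of -72, -71, -64 and -62.5 bp in WT 1, WT 2, edKO 1 and edKO 2, against -42, -41, -39 and -35 bp in shorter regions. At 500 bp downstream of the start a peak covered 54.3% and 52.9% of these members in the WT libraries, 36.3% in edKO 1 and 57.1% in edKO 2. At 500 bp upstream the shares were 41.9%, 41.2%, 32.5% and 35.3%. At 500 bp downstream only edKO 1 was thus below the WT libraries, whereas both edKO libraries were below them at 500 bp upstream. In shorter regions a peak covered 53.3%, 50.3%, 37.9% and 49.6% at 250 bp downstream in that order of libraries, and 64.0%, 63.0%, 49.6% and 60.2% at 200 bp. There edKO 1 was again the lowest, and at these distances edKO 2 also lay below both WT libraries. At 300 bp the shares in shorter regions were 44.2%, 40.3%, 29.7% and 40.5%, with edKO 2 between the WT libraries. Broad regions had 74.4%, 70.0%, 57.5% and 78.5% at 300 bp. The place of edKO 2 in shorter regions thus depended on the distance.

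**Figure D2:**
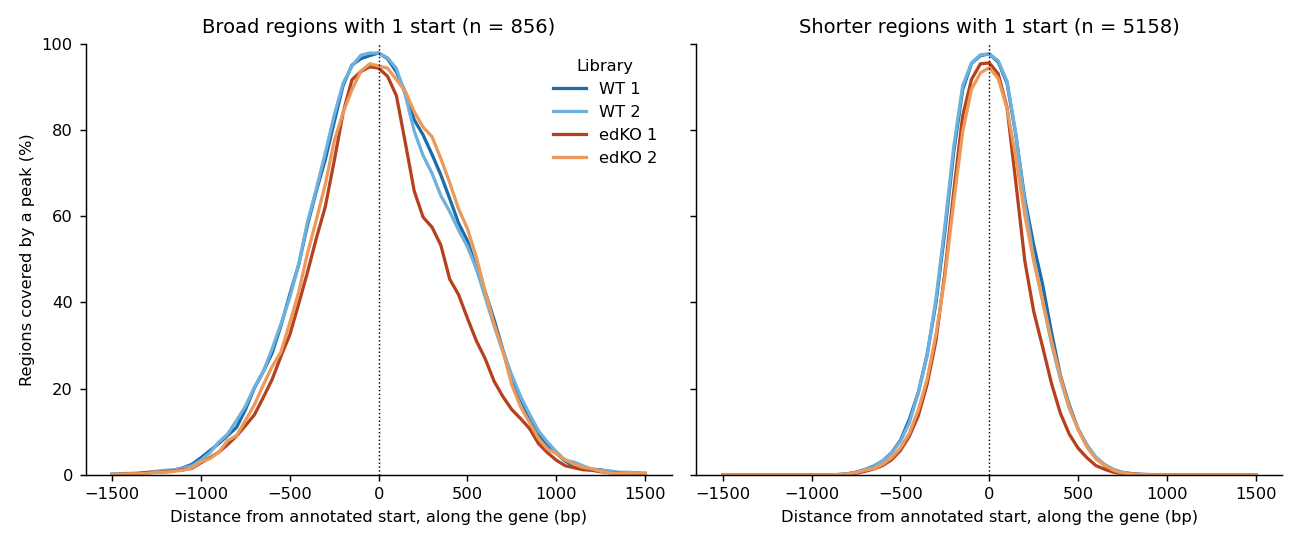
Share of regions covered by a peak (y axis, %) at each distance from the annotated start (x axis, bp, positive into the gene), for 856 broad regions (left) and 5158 shorter regions (right) with exactly 1 start, 1 line per library. Broad regions extend further downstream than upstream, and in broad regions the edKO 1 line is the lowest at 500 bp downstream of the start, at 36.3%.

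Pairs of genes transcribed away from each other were a frequent content of broad regions. Starts of 2 or more genes lay inside 321 members (17.7%, against 6.97% of shorter regions), and in 256 members (14.1%) these formed a head-to-head pair, against 856 shorter regions (5.80%). Per megabase of region the density was closer, at 118 pairs in broad and 94.1 in shorter regions. Of the 256 pairs, 153 joined 2 protein-coding genes and 103 a protein-coding gene and a long noncoding RNA, with a median of 168 bp between the starts (119 bp in shorter regions). The widest of them was the region of 1978 bp at chr7:3692724-3694701, over Mboat7, a phospholipid acyltransferase, and Tsen34, a tRNA-splicing subunit, whose starts lie 624 bp apart. It had 1724 and 1773 bases covered in the WT libraries and 1281 and 1608 in the edKO libraries. Srsf2, a splicing factor, and Mfsd11 shared a region of 1755 bp, Hnrnpk, an RNA-binding protein, and Rmi1 one of 1712 bp, and Hnrnpa2b1 and Cbx3, a pair long studied as a ubiquitously open promoter, one of 1582 bp. The respiratory chain gene Uqcrh and Lrrc41 shared a region of 1756 bp, with 1026 and 1160 bases covered in the WT libraries and 1206 and 1620 in the edKO libraries. These examples were named after their values had been seen.

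Member promoters were richer in CpG than those under shorter regions. In the 1752 protein-coding promoters whose start lay in a member, the median G+C content was 67.7% (quartiles 61.3 and 73.3%), with 29 CpG per 300-base window and a ratio of observed to expected CpG of 0.887. The 7493 promoters under shorter regions had 62.3%, 23 CpG and 0.802. At or above the median strength of members, 970 member promoters had 67.3%, 29 CpG and 0.888, and 2645 under shorter regions (the strong shorter regions) had 64.7%, 25 CpG and 0.837. With this shared lower limit the median strength was the 94.5th percentile in members and the 93.1st in shorter regions, so strength was close but not matched. The 10002 promoters with no called region had 49.0%, 4 CpG and 0.235. With CpG-rich taken as at least 50% G+C and a ratio of at least 0.6, 90.2% of member promoters (92.8% of those of strong members), 79.2% under shorter regions, 89.5% under the strong shorter regions and 45.6% of all promoters were CpG-rich.

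Among promoters in a region called in all 4 libraries, the share lying in a broad region climbed with each step in CpG number. It was 6.81% with up to 9 CpG, 11.4% with 10 to 19, 16.9% with 20 to 29, 26.6% with 30 to 39 and 40.5% with 40 or more. By strength the share of members ran from 1.81% in the weakest 10% of regions to 27.7% in the strongest 10%. Width and −log10 p come from the same peaks, so this second relation describes the calls.

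**Figure D3:**
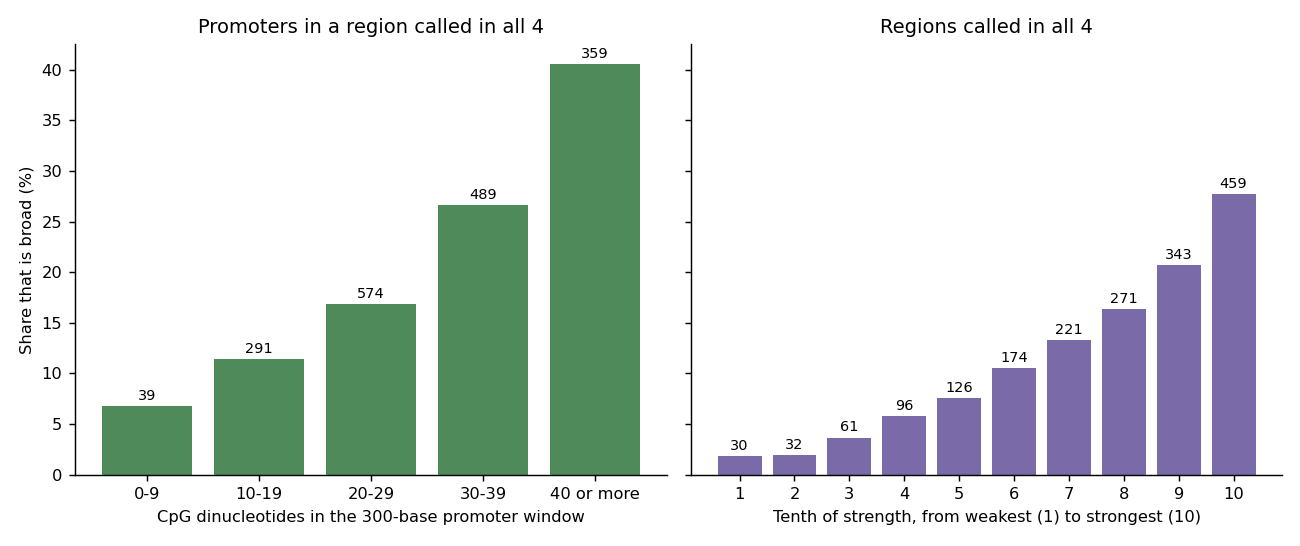
Left, share of promoters in a region called in all 4 libraries that lay in a broad region (y axis, %), by the number of CpG dinucleotides in the 300-base promoter window. Right, share of all regions called in all 4 libraries that were broad, in 10 groups of rising strength. Numbers above the bars count promoters in broad regions (left) and broad regions (right), and both shares climb from the lowest to the highest group, to 40.5% and 27.7%.

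Short sequence motifs were counted in the same promoter windows, on both strands. A match is a description of letters and not a binding site. GC boxes (GGGCGG), the site of Sp1 and Sp3, were present in 80.5% of member promoters, 72.0% under shorter regions, 83.3% under strong members, 81.6% under strong shorter regions and 46.7% of all promoters. CCAAT boxes (CCAAT), bound by NF-Y, were present in 35.1% of member promoters, against 40.9% under shorter regions, and in 45.1% under strong members against 53.1% under strong shorter regions. ETS motifs (CCGGAAG) stood in 15.3% against 22.7%, and in 14.4% against 23.3% among the strong. Above the same limit of strength, GC boxes thus differed little and CCAAT and ETS letters were less frequent in broad regions, with no test made. TATA boxes (TATAAA) stood in 3.77% of member promoters, 5.39% under shorter regions and 12.7% of all promoters. E-boxes (CACGTG) stood in 10.3% against 11.4%, NRF1 motifs (GCATGCGC) in 6.56% against 6.45%, YY1 motifs (GATGGCGG) in 4.45% against 4.30%, and CRE motifs (TGACGTCA) in 3.37% against 4.0%, each for member promoters against those under shorter regions. Of motifs of factors known for muscle genes, those of GATA, SRF and MEF2 were uncommon in both, and that of TEAD, the shortest of them, was more frequent. A shorter motif is met more often by its length alone, so shares are compared only within a motif. The GATA factor motif with the letters AGATAAG stood in 0.628% against 1.35%, that of TEAD with the letters GGAATG in 8.85% against 11.2%. The CArG box of SRF stood in 0.970% against 1.33% and the MEF2 motif in 0.285% against 0.400%. Over all promoters the shares were 2.63% for GATA, 13.5% for TEAD, 1.54% for the CArG box and 0.494% for MEF2. The printed Mef2a promoter held 1 stretch with the letters of the MEF2 motif, which reads as the motif on both strands. The DR1 repeat that PPAR and RXR recognise together was found in 2 of 1752 member promoters, 1 of 7493 under shorter regions and 10 of 21045 of all promoters. These counts are too few to compare.

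The widest member of all did not look like a promoter. It lay at chr17:39843091-39846720 (3630 bp), overlapped the 18S ribosomal RNA pseudogene Rn18s-rs5 by 367 bp, and its nearest protein-coding gene end, that of Esp38, was 103800 bp away. It was called as 1 peak in each library, with 3616 and 3625 bases covered in WT 1 and WT 2 and 3566 and 3558 in edKO 1 and edKO 2. The authors' −log10 p was 323, 269, 182 and 262 there, among the highest of each list, at a fold enrichment of only 2.99, 3.14, 3.22 and 3.29 over the local background. Such a pairing of a low fold with a high −log10 p marks a high local background. A fold under 4 in every library was found in 5 members, which besides this one lay in Gm51877 (2 members), at Nol4l and at Ccdc63. Whether reads of repeated ribosomal DNA copies collect there was not tested.

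The next widest member, at Arid1b (chr17:4994046-4996628), whose promoter was printed first, had 1986, 1913, 890 and 1952 bases covered in WT 1, WT 2, edKO 1 and edKO 2. Only edKO 1 was low, and the other edKO heart lay between both WT hearts. At Sp3 (chr2:72978790-72981010) the values were 2118, 1959, 1585 and 2124, again with edKO 1 alone below the WT range. Atxn1, a transcriptional corepressor gene, had a region of 2182 bp with 1554, 1755, 1357 and 1492 bases covered. Nsd1, a histone H3 lysine 36 methyltransferase gene, had one of 2172 bp with 1590, 1640, 1219 and 1948. Hsp90ab1, encoding a constitutive chaperone, had one of 2018 bp with 1820, 1903, 1308 and 1741. In all 3 edKO 1 was the lowest. The widest member in a gene body without an annotated start lay in Ywhaz, a 14-3-3 protein gene, 8453 bp from its end (chr15:36792337-36794531, 2195 bp), with 2048, 1877, 1772 and 2061 bases covered.

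The strongest members were narrower than these, and the first 5 were 1 peak in every library. By mean percentile of −log10 p they lay at Dnpep, an aminopeptidase (1096 bp), Inpp5a, an inositol phosphatase (1006 bp), Wipi1, an autophagy protein (1095 bp), Clic4, an intracellular chloride channel protein (1027 bp), and Pja2, a ubiquitin ligase (1062 bp). At Dnpep 1084, 1084, 842 and 895 bases were covered in WT 1, WT 2, edKO 1 and edKO 2, in 1 peak each, at −log10 p of 252, 297, 245 and 181. Across members 849 (46.8%) were 1 peak in every library, against 92.6% of shorter regions, and 32 were split into 2 or more peaks in every library.

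A larger share of chromatin regulator genes than of all genes had a broad region, and a smaller share of contractile protein genes. Of all 21631 protein-coding genes, 10115 had a region called in all 4 libraries at an end and 1787 of these (17.7%) had a broad one. At 1000 bp the chromatin regulator list stood highest among lists with at least 10 such genes, at 14 of 29 (48.3%), followed by nuclear receptors at 7 of 22 (31.8%), housekeeping genes at 6 of 24 (25.0%) and cardiac transcription factors at 5 of 22 (22.7%). Sarcomere genes had 1 of 24 (4.17%), cell cycle genes 2 of 25 (8.0%), cytosolic ribosomal protein genes 4 of 44 (9.09%), and PPAR and RXR partner targets 0 of 13. Lists near the level of all genes were oxidative phosphorylation at 6 of 34, fatty acid uptake and oxidation at 5 of 30 and calcium handling at 3 of 18. The order of the lists depended on the width threshold. At 750 bp, where all genes stood at 50.7%, chromatin regulators had 23 of 29 (79.3%), oxidative phosphorylation 24 of 34 (70.6%), nuclear receptors 11 of 22 (50.0%) and sarcomere genes 6 of 24 (25.0%). At 1500 bp no list held more than 2 genes, against 1.35% of all genes, and chromatin regulators had 2 of 29. The lists also differed in promoter type, since 93.3% of chromatin regulator promoters, but 19.2% of sarcomere and 25.0% of calcium handling promoters, were CpG-rich by gene. Of cell cycle genes 95.5% and of ribosomal protein genes 75.7% were CpG-rich, and the part of promoter type in the list counts was not tested. Counting also starts inside members away from gene ends added Mef2a, Klf15, Idh2, Arid1a, Hdac4, Hdac7, Cdk6, Mcl1 and Tef.

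**Figure D4:**
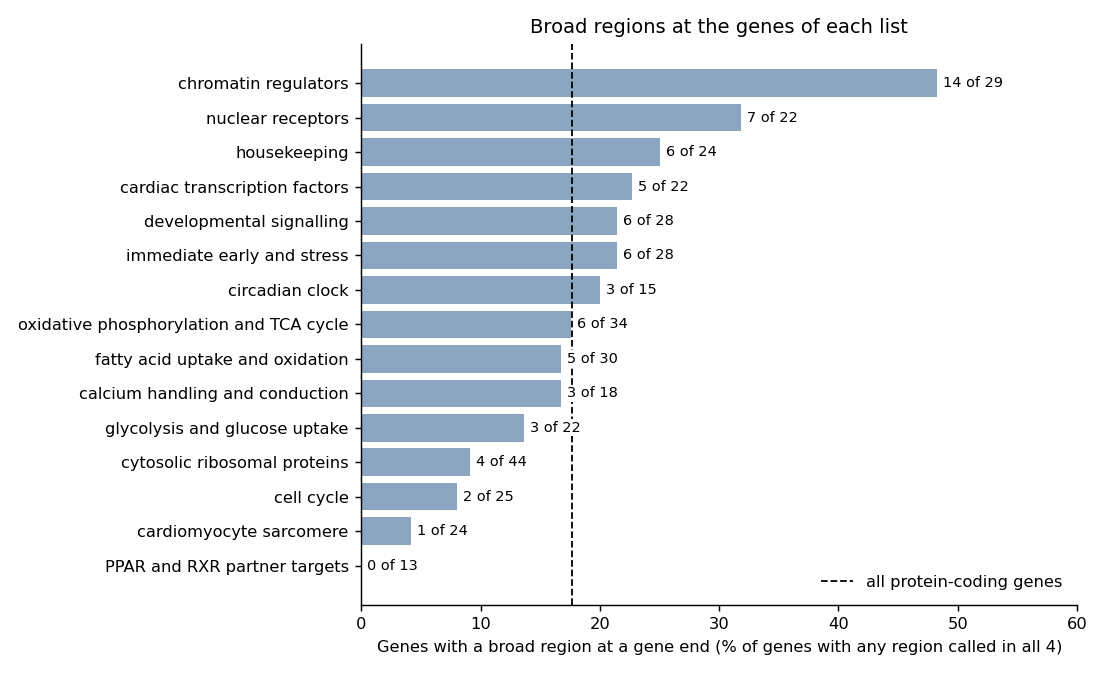
Share of genes with a broad region within 1 kb of a gene end (x axis, %), out of the genes of each list with any region called in all 4 libraries, for lists with at least 10 such genes. Labels give both numbers, and the dashed line is the share over all protein-coding genes, 17.7%. Chromatin regulators lie furthest above it at 14 of 29 and sarcomere genes and PPAR and RXR partner targets furthest below, at 1 of 24 and 0 of 13.

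Regions of any width called in all 4 libraries lay at 46.8% of all protein-coding genes. They lay at 24 of 32 sarcomere genes (75%), 9 of 20 fibroblast, 6 of 22 endothelial, 7 of 14 smooth muscle, 3 of 11 epicardial, 2 of 12 erythroid, 3 of 14 neuronal and 0 of 15 immune genes. Skeletal muscle genes not used by the heart had 2 of 15, and liver genes 1 of 14. Sarcomere genes were thus above the share of all genes, fibroblast (45%) and smooth muscle (50.0%) genes near it, and the other lists below it. Broad regions at genes of these other cell types were 3 in all, at Lamc1, Vim and Flt1, and the part of these cells in any difference between the groups was not tested.

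Among chromatin regulators, the members included those of remodellers (Chd4, Chd7, Smarca4), histone methyltransferases (Ezh2, Kmt2a, Setd2), the polycomb subunit Eed, the acetyltransferase Ep300, deacetylases and corepressors (Hdac2, Ncor1, Nrip1), the demethylase Kdm5a and the DNA dioxygenase Tet3. The widest, at Chd4 (1731 bp, chr6:125095553-125097283), had 1657, 1399, 1352 and 1574 bases covered in WT 1, WT 2, edKO 1 and edKO 2, and the groups overlapped. Ep300 (1558 bp) had 1512, 1553, 1442 and 1450, with both edKO libraries just below both WT libraries. The gap was widest at Kdm5a (1294 bp), whose end lies beside Ccdc77, with 977, 1294, 612 and 595 bases. Over this list 5 of 14 members had fewer bases in both edKO libraries and 0 had more, where 42.7% of all regions called in all 4 libraries had fewer and 4.13% more. The list was near all regions in this.

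At cardiac transcription factor genes the members lay at Gata6, Tead1, Foxp1, Zfpm1 and Mef2d, and at the inner start of Mef2a. Gata6, a zinc-finger factor of heart development, had a region of 1470 bp with 1354, 1468, 1201 and 1295 bases covered in WT 1, WT 2, edKO 1 and edKO 2. Tead1, the DNA-binding partner of YAP, had one of 1248 bp with 1248, 1229, 882 and 1185. Foxp1, a forkhead repressor, had one of 1155 bp with 1099, 852, 444 and 756. In these 3 of the 5 gene-end members both edKO libraries lay below both WT libraries, as in 42.7% of all regions, both counted without scaling. Once each library was scaled by its median over shorter regions, the share of all regions was 14.3%. The count of 3 was not scaled and is not set against that share. With so few members it is not read as a difference from all regions. Zfpm1 had 1003, 1050, 1006 and 985, and Mef2d, another MADS-box factor, 927, 974, 799 and 1010, so their groups overlapped. Mef2a went the other way, with 1177 and 1185 bases in the WT libraries and 1221 and 1363 in the edKO libraries.

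Calcium handling genes had 3 members, all with overlapping groups. Calm2, a calmodulin gene, had a region of 1509 bp with 1509, 1361, 1457 and 1459 bases covered in WT 1, WT 2, edKO 1 and edKO 2. Camk2d, the calmodulin-dependent kinase of cardiomyocytes, had one of 1502 bp with 1210, 1382, 1127 and 1477. Atp2a2, which encodes the calcium pump SERCA2 of the sarcoplasmic reticulum, had one of 1048 bp with 960, 968, 739 and 1013. The only member at a sarcomere gene, 1062 bp at Myom1 (an M-band protein), also met Myl12a, a nonmuscle myosin light chain gene, and had 1062, 957, 756 and 992.

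Genes of fatty acid use had 5 members, and 3 had fewer bases in both edKO libraries, against 42.7% of all regions. With so few members this count is not read as a difference from all regions. Acot2, a mitochondrial acyl-CoA thioesterase, had a region of 1274 bp (chr12:83987294-83988567) with 1218 and 1264 bases covered in the WT libraries and 684 and 693 in the edKO libraries, a log2 ratio of means of -0.85. Acsl1, which activates long-chain fatty acids, had 1241 and 706 against 626 and 702, so the gap between the groups was only the few bases between WT 2 and edKO 2. Crat, the carnitine acetyltransferase, whose region also meets Ptpa, had 1222 and 1027 against 965 and 759. At Ppara, the fatty acid sensing receptor and RXR partner, the gene-end region of 1425 bp had 1184 and 1388 against 1252 and 1161, and at Slc27a1, a fatty acid transport protein, 1093 and 963 against 813 and 1240. Both of these overlapped. A second broad region, 1746 bp wide (chr15:85669883-85671628), lay 63282 bp from Ppara, its nearest protein-coding gene. It had 1665 and 1672 against 1020 and 1250, a log2 ratio of -0.56, and was the fourth widest member between genes. The nearest annotated start was that of the long noncoding RNA Lncppara, 32145 bp away.

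Glucose uptake genes had 3 members. Slc2a4, the insulin-responsive transporter GLUT4, had a region of 1277 bp (chr11:69947949-69949225) with 1089 and 1070 bases covered in the WT libraries and 590 and 707 in the edKO libraries, a log2 ratio of -0.74. Slc16a1, a lactate transporter, had 1022 and 1148 against 952 and 980, and Pgam1, a glycolytic mutase, 901 and 483 against 454 and 682. The first 2 had fewer bases in both edKO libraries, a pattern seen in 42.7% of all regions, and Pgam1 overlapped.

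Nuclear receptor genes had 8 members at 7 genes. Nr1d2, the clock repressor REV-ERBβ, had the widest at 1466 bp, with 1377, 1466, 1347 and 1434 bases in WT 1, WT 2, edKO 1 and edKO 2. Esrra, the estrogen-related receptor of mitochondrial genes, had 2, one at each end of the gene. The one of 1184 bp (1103, 816, 791 and 763) also lay within 1 kb of ends of Prdx5 and Trmt112. The one of 1021 bp (1021, 867, 741 and 876) also lay within 1 kb of an end of Catsperz. Nr2c2, Nr2f6 and Nr6a1, orphan receptors, completed the list with Ppara and Rxrb. The region at the end of the targeted gene Rxrb, shared with Slc39a7 (chr17:34031367-34032464, 1098 bp), had 758, 927, 793 and 990 and overlapped between the groups. The region at the end of the targeted gene Rxra was 800 bp wide (chr2:27676730-27677529) and so no member, with 547, 513, 613 and 470. These calls do not check the genotype, since the deleted exons were not located here.

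**Figure D5:**
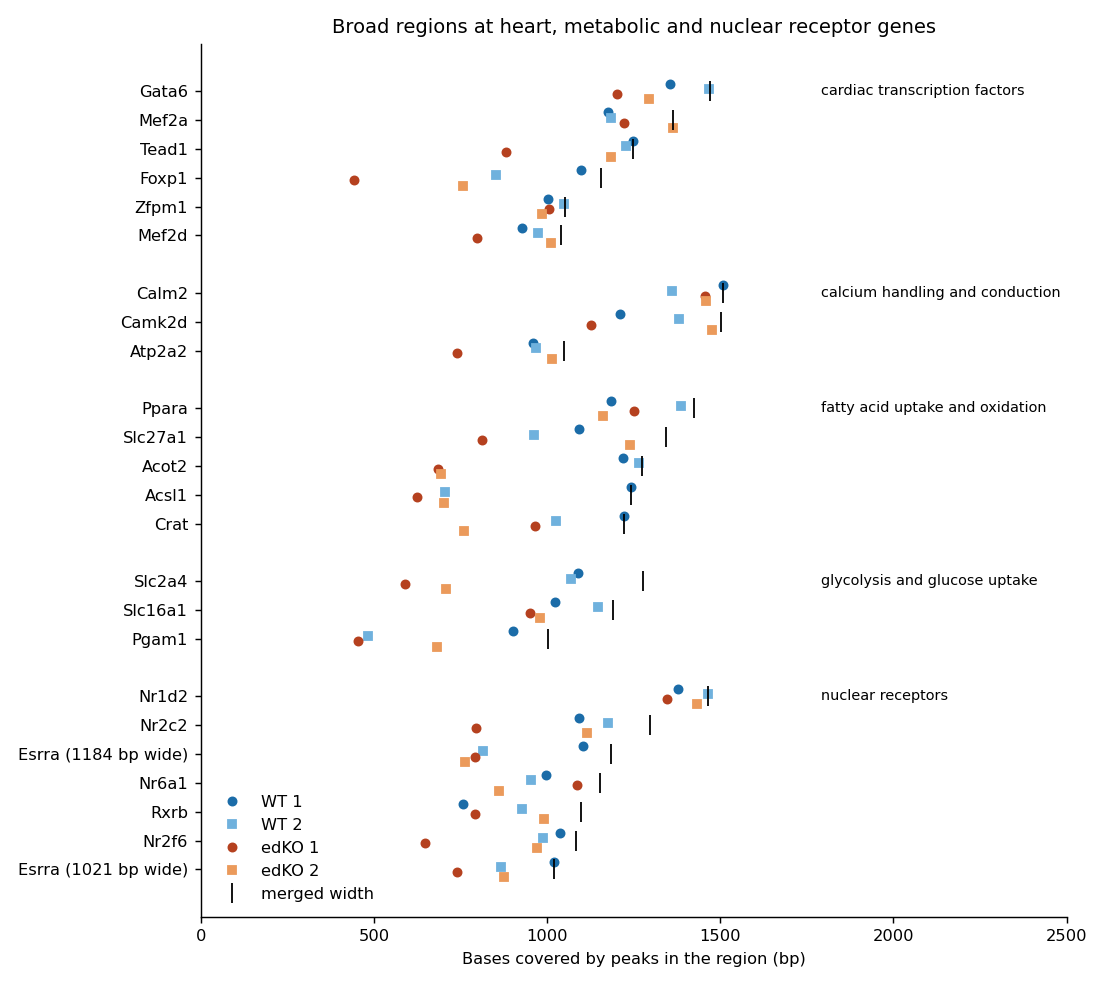
Bases covered by peaks (x axis, bp) in each broad region at genes of 5 lists, 1 symbol per library, with the merged width as a vertical bar. At Acot2, Slc2a4, Tead1 and Foxp1 both edKO symbols lie left of both WT symbols, at Mef2a both lie right of them, and at Calm2, Camk2d, Atp2a2 and Rxrb the groups overlap.

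Both edKO libraries covered fewer bases in broad regions than both WT libraries, and edKO 1 far fewer than edKO 2. The median bases covered per member were 1010 and 1005 in WT 1 and WT 2, and 854 and 973 in edKO 1 and edKO 2, that is 1007.5 ± 3.54 (SD, n = 2) against 913.5 ± 84.1 (SD, n = 2), a ratio of 0.907. The exact permutation test of 2 libraries against 2, two-sided, gave p = 0.33, the smallest it can give. Members were chosen by a merged width that comes from these same peaks, so this comparison describes the calls. Shorter regions had 503 and 503 in the WT libraries and 422 and 424 in the edKO libraries, a ratio of 0.841 (p = 0.33 by the same exact test). Members thus had 2.01, 2.00, 2.02 and 2.29 times the bases of shorter regions. In edKO 1 broad and shorter regions were narrower by about the same factor, while in edKO 2 broad regions kept nearly their WT coverage and shorter regions did not. The difference in this ratio between groups had an exact permutation p of 0.33. The cut at 1000 bp uses each library's own peaks, so a library with wide peaks helps to place its wide regions among members. The ratio is therefore not independent of the member rule. Without edKO 1 the edKO minus WT difference in members was -34.8 bp, and without edKO 2 it was -146 bp.

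The libraries also differed in enrichment and in length of list, and the part of this in the coverage was not tested. The lists held 35279 and 38809 peaks in WT 1 and WT 2 and 27473 and 27142 in edKO 1 and edKO 2. At members the authors' median fold was 10.2, 10.5, 10.3 and 8.03 and the median −log10 p 59.4, 59.4, 42.0 and 29.3. The lowest median fold was that of edKO 2, and the fewest bases per member those of edKO 1. Of the 1813 members 1053 had their lowest coverage in edKO 1, 404 in edKO 2, 186 in WT 2 and 170 in WT 1, whereas shorter regions were lowest about equally often in edKO 1 (5809) and edKO 2 (6063). Single peaks of 1 kb or more numbered 815, 777, 293 and 652. Members were also split more in edKO 1, at 1.30 peaks per member against 1.21, 1.23 and 1.24 in WT 1, WT 2 and edKO 2.

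Rank within a list showed a small gap for broad regions and a wider one for shorter regions. In broad regions the median percentile of −log10 p was 88.9 and 88.6 in WT 1 and WT 2 and 85.8 and 86.0 in edKO 1 and edKO 2 (exact permutation p = 0.33). Shorter regions had 74.3 and 76.7 in WT 1 and WT 2 and 67.1 and 66.6 in edKO 1 and edKO 2. With lists of equal length, each holding its strongest peaks, the difference in broad regions turned from -2.87 to 1.18 percentile points. Its sign therefore depended on the length of the lists.

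Member by member, 705 of 1813 (38.9%) had fewer bases covered in both edKO libraries than in both WT libraries, against 42.7% of all 16568 regions called in all 4. More bases in both edKO libraries were found in 67 members (3.70%), against 4.13% of all regions, and 1041 members overlapped. Both shares are near the background, so broad regions were not set apart by them. Once each library was scaled by its own median over shorter regions, 187 members (10.3%) had fewer bases in both edKO libraries, against 14.3% of all regions. After the same scaling 583 (32.2%) had more, against 26.9% of all regions. The balance between fewer and more thus reversed with the scaling, in members and in all regions. By class, fewer bases in both edKO libraries were seen in 37.6% of members at gene ends, 42.7% in gene bodies and 51.2% between genes, close to the 39%, 46.1% and 50.2% of shorter regions of those classes.

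Of members with fewer bases in both edKO libraries, the one with the lowest ratio lay at Rdm1. This gene, which encodes a RAD52-motif protein, had a region of 1485 bp with 1218 and 1287 bases covered in the WT libraries and 523 and 207 in the edKO libraries, a log2 ratio of -1.78. Macf1, a cytoskeletal linker, had 872 and 491 against 200 and 200 (-1.77), in a region of low strength at the 19.8th percentile. Eif3b, an initiation factor subunit, had 774 and 960 against 269 and 263 (-1.70). Zfp672 with Sh3bp5l, Arhgap11a, Unc5c and Syne2 followed at gene ends, and Ptprd, Dysf and Sertad4 as nearest genes elsewhere, at log2 ratios of -1.48 to -1.30. The region 1155 bp wide whose nearest gene end is that of Dysf, a membrane repair protein of striated muscle, was the strongest of these in the WT libraries, with 1097 and 959 against 549 and 241.

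More bases in both edKO libraries were found at Chd6, a remodeller gene, with 534 and 531 in the WT libraries and 692 and 1071 in the edKO libraries, a log2 ratio of 0.73. Foxp4, a forkhead factor, had 792 and 874 against 1327 and 1170 (0.58), and Plk4, the kinase of centriole duplication, 558 and 683 against 842 and 1005 (0.57). Higher still were a region between Gm52875 and Wnt5b (390 and 584 against 788 and 836) and one in Gm51877 (200 and 280 against 330 and 1228). The latter is 1 of the 5 members with a fold under 4 in every library, and its value rests on edKO 2. At Chd6 the −log10 p was lower in the edKO libraries, at 76.7 and 50.6 against 133 and 122. It was lower over members in general, with medians of 42.0 and 29.3 in the edKO libraries against 59.4 and 59.4 in the WT libraries. The lower −log10 p is therefore not read as a trait of the Chd6 region.

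Very few regions of 1 kb or more missed a library. Of 1834 merged regions of that width 21 were not called in all 4, and 18 of these were called in both WT libraries. This lean was general: of 36551 narrower regions not called in all 4, 11501 (31.5%) held a peak from each WT library and 872 (2.39%) one from each edKO library. Both edKO libraries lacked a peak at 5436 of the 11501. Missing in both edKO libraries were 4 regions, at Shisa3, near Pdk4, in Angptl4 and at Mdfic. Of these the regions near Pdk4, the kinase that restrains glucose oxidation, and in Angptl4, a lipase inhibitor, stood at the 94.8th and 94.0th percentile of strength. No other of the 21 exceeded the 60.3rd. Strength is here the mean over the libraries that called a region, so it rests on differing sets of libraries among the 21. Near Pdk4 and in Angptl4 it rests on the WT libraries alone. A single such region, near Epm2a, was called in edKO 2 alone.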

How the data were processed

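Each library had 1 deposited narrowPeak list, so the authors called peaks per heart and pooled no replicates. Per the submitters' processing notes the build was mm10 (GRCm38) and the tools included MACS2, Bowtie2, SAMtools, cutadapt, bcl2fastq and CASAVA. No source used here gives versions, the Tn5 shift or the treatment of duplicates. The authors' deposited lists give, per peak, a fold enrichment (a ratio of pileup to local background), a −log10 p, a −log10 q-value, a summit and a score. These were used to rank and describe peaks within a list, and the score was not used. The lists hold no counts, so read depth per library is unknown and no count test was possible.

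Peaks were merged at an overlap of 1 bp, and the bases covered were the summed widths of a library's peaks in a region. The merging and the member rule were tested on simulated peak lists. Groups and replicate numbers come from the sample titles, and each library is 1 heart. Medians per library were compared by an exact permutation test, two-sided (Python 3.11.15, numpy 2.4.6, pandas 2.3.3, scipy 1.17.1), and no test was made per region. Gene positions came from RefSeq for GRCm38.p6 (21631 protein-coding genes, with no strand), and starts, strand and sequence from its table of promoter windows (21045 protein-coding entries). All 643 genes of the 25 lists were found.

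Members and lists were chosen with earlier results of these data known. Named regions were the 10 widest members, the 5 strongest, up to 3 of the widest for each list, the 10 lowest and 5 highest edKO to WT ratios among members whose groups did not overlap, and the 5 widest in gene bodies and between genes. To these came the 3 nearest to 1000 bp on either side, those at Rxra and Rxrb and the 5 over most gene ends. Other members of the lists were named after their values had been seen. A chromatin regulator counted in its list is not reported here. Promoters printed lie wholly inside the region, at most 10. The comparison above a shared limit of strength was chosen after seeing the data. Alternatives were other width thresholds, a −log10 p of at least 10, lists of equal length, an overlap of 100 bp, leaving out each library, and choosing members on the libraries of 1 number and measuring them in the others.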

Additional observations from a re-analysis of the deposited data

How the results depend on the processing

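The edKO minus WT differences in bases covered, in the ratio of members to shorter regions and in peaks per member kept their direction under every alternative tried, and the difference in rank under all but lists of equal length, where it was 1.18 percentile points. Without edKO 1 the log2 ratio of members to shorter regions differed by 0.214 and the peaks per member by 0.02, without edKO 2 by 0.047 and 0.121, and with −log10 p of at least 10 the log2 ratio differed by 0.019. For the log2 ratio the WT and edKO libraries overlapped at 750 bp (exact permutation p = 0.667), at 1500 bp and with −log10 p of at least 10. For peaks per member they overlapped with −log10 p of at least 10. None of these differences could pass a test with 2 libraries a group. Across members the deviations of libraries with the same number had a correlation of 0.0319. The titles give only a number, so this cannot decide whether the numbers pair the hearts. The replicate block gave -94.0 bp, 0.106 on the log2 scale, -2.87 percentile points and 0.05 peaks, each with an exact p of 0.5, the smallest it allows. Members numbered 5575 at a minimum width of 750 bp, 134 at 1500 bp and 317 with 1000 bases covered in every library. List genes with a member then numbered 195 at 750 bp and 9 at 1500 bp, against 73 in the report. The gene-end share was 77.7% at 750 bp, 83.5% with −log10 p of at least 10, 76.6% by summit and 73.0% within 100 bp. Broad regions not called in all libraries numbered 87 with −log10 p of at least 10 and 12 with an overlap of 100 bp, against 21. The share of members with fewer bases in both edKO libraries ranged from 45.7% to 74.3% when 1 library was left out, since fewer libraries must then agree, and the highest value was that without edKO 2. It was 62.6% for regions chosen on the libraries numbered 1 and measured in those numbered 2, and 81.5% the other way round, where 1 library is set against 1, against 71.8% and 73.0% of shorter regions. Members were thus below shorter regions one way and above them the other. Scaling by the median of shorter regions, an alternative chosen after seeing the data, gave 10.3%. Peak lists without counts limit every value here: a missing or short peak shows that signal stayed below the authors' threshold in that library.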

Other observations

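Some genes carried several broad regions. Nol4l held 4, at its gene end and in its body, and Klf13, a Krüppel-like factor gene, held 3, of 1033, 1007 and 1430 bp. The member at the Klf13 gene end had 1394 and 1353 bases covered in WT 1 and WT 2 and 1172 and 1340 in edKO 1 and edKO 2. At Nol4l the gene-end member had 983 and 1454 bases covered in the WT libraries and 251 and 908 in the edKO libraries, at a low mean percentile of strength of 38.8.

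Of 1005 annotated microRNA hairpins, 12 lay in 11 members and 40 in shorter regions. Mir2861 and Mir3960 shared the member of 1240 bp at Cdk9, the kinase that releases paused RNA polymerase II, with 1171, 1239, 1073 and 1150 bases covered in WT 1, WT 2, edKO 1 and edKO 2. Mir7045 lay in the member at Chd4 and Mir207 in that at Dnaja1, a chaperone gene, with 1369, 1258, 1290 and 1345 bases.

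By chromosome, the share of regions called in all 4 libraries that were broad was 7.53% on the X chromosome (28 members) and 8.82% to 13.2% on the autosomes, with the highest share on chromosome 17 (102 members). The only member at a Hox gene, 1040 bp at Hoxd8, was the weakest member of the lists, at the 12.0th percentile, with 237, 512, 441 and 582 bases covered in WT 1, WT 2, edKO 1 and edKO 2.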
